A study of Homo sapiens with 9 samples.

Results

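S100 genes encode small calcium-binding proteins, and 10 of them were followed here through a 28-day drug treatment of lung cancer cells: S100A2, S100A4, S100A6, S100A8, S100A9, S100A10, S100A11, S100A14, S100A16 and S100P. They were chosen by name, with earlier results of these data known, and each was represented by the coding transcript with the highest mean over the 9 libraries. All 10 passed the filter on low values, among 12391 genes tested of 20442 in all. Of the other S100 genes in the file only S100A13 passed it.

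The cells were PC9, a line from a human lung adenocarcinoma whose growth is driven by mutated EGFR, the epidermal growth factor receptor, and carried the FUCCI4 cell cycle reporter, of which the labels name the CDT1 and geminin markers. One arm had received 500 nM osimertinib, an inhibitor of mutant EGFR, for 28 days (day 28) and the other was untreated (day 0). Both arms were fixed with glyoxal and separated into G1, S and G2 cells on DAPI (DNA content) and reporter signals before strand-specific poly(A) RNA-seq. Day 28 gave 2 G1 libraries (clones 1 and 7), 1 S library and 1 G2 library (both clone 1). Day 0 gave 2 G1 libraries (clones 1 and 7), 2 S libraries (clones 1 and 7) and 1 G2 library (clone 1). No label says whether libraries of a clone were cultured apart, so p-values measure the spread between libraries, which may be fractions of 1 culture.

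Each S100 protein carries a pair of EF hands, helix-loop-helix folds that hold calcium. Most form dimers, and calcium binding exposes a surface that grips a partner such as an annexin, a cytoskeletal protein or p53. S100A10 is an exception, since it has lost calcium binding and sits permanently in the partner-binding shape. Several members are also released from cells and are bound by receptors such as AGER (RAGE) and TLR4. Most of the genes lie in a cluster on human chromosome 1 within the epidermal differentiation complex, and many are expressed in epithelia and in carcinomas.

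Library depth ran from 8.83 M (mega) reads over coding spans (day 0 G1 clone 7) to 108.7 M (day 0 G1 clone 1), and the day 28 libraries lay between 30.5 and 43.1 M. Mitochondrial transcripts took 8.61% to 21.6% of reads in day 28 libraries and 6.07% to 10.7% in day 0 libraries. The epithelial identity of the line was visible in all libraries: the summed level of 7 epithelial markers (EPCAM, KRT7, KRT8, KRT18, KRT19, CDH1 and ELF3) was 12272 to 23419 CPM, counts scaled to 1 M reads, at day 28 and 18752 to 29855 CPM at day 0. Reads were counted over coding spans, introns included, and values are log2 of reads scaled by the authors, with 1 added. In bulk RNA, fewer cells expressing a gene and less RNA per cell cannot be told apart.

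Of the genes, 9 lie on chromosome 1 and S100P lies on chromosome 4. Their coding spans are short, from 433 bases (S100A8) to 4254 bases (S100A11), with 2 or 3 coding exons that encode 90 (S100A6) to 114 residues (S100A9). Within the spans the share of coding bases ran from 7.5% (S100A11) to 65.1% (S100A8), so that introns make up most of every span but those of S100A8 and S100A16. Coordinates are those of the deposited file (GRCh38), and 9 of the 10 spans are those of GENCODE v29. The span of S100A2 differs from the one of that transcript name in GENCODE v29. S100A6 and S100A11 each overlap an annotated gene on the opposite strand, and the strand setting of the counting is not given in the sources used here.

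After 28 days of osimertinib the S100 genes as a group stood lower. With phase as a term, 8 of the 10 fell (S100A2, S100A6, S100A9, S100A10, S100A11, S100A14, S100A16 and S100P), none rose, and S100A4 and S100A8 did not pass the test (limma, Benjamini-Hochberg adjusted p under 0.05 over all genes tested). Over all genes tested 26.6% fell and 28.6% rose. Genes with a coding span up to 10 kb, to which all 10 belong, fell more often, at 37.9% of 3272 genes, against 15.8% that rose. The median log2 fold change was -1.32 over the 10 genes, 0.01 over all genes and -0.42 over genes with spans up to 10 kb. S100A9 had been seen to fall before these genes were chosen.

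**Figure D1:**
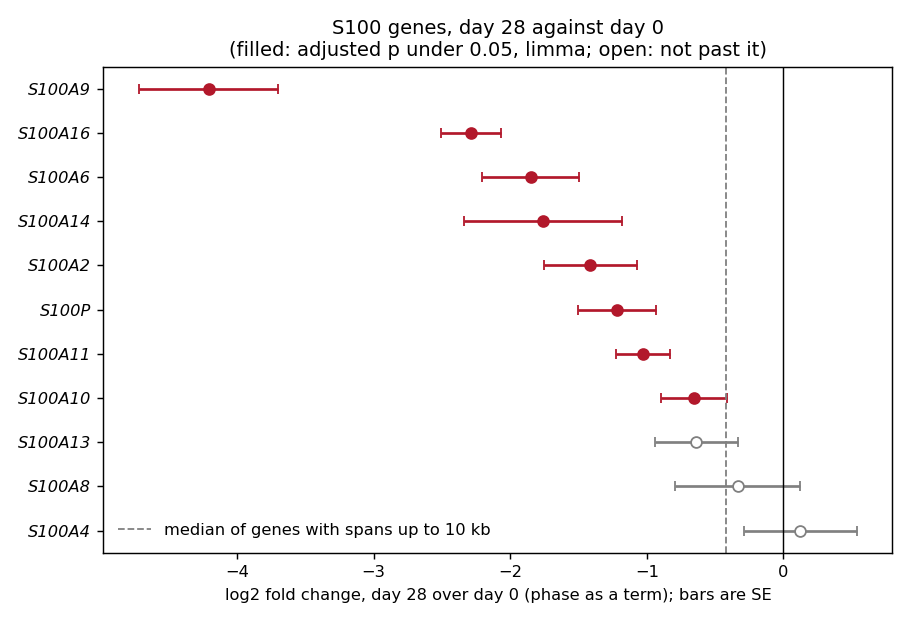
Log2 fold change of day 28 over day 0 (horizontal axis, phase as a term, bars are SE) for the 10 S100 genes and S100A13, ordered by size from top to bottom, with filled points where the adjusted p was under 0.05. S100A9 stands far to the left at -4.21, 7 further genes lie between -2.29 and -0.66, and S100A13, S100A8 and S100A4 have open points. The dashed line marks the median of genes with spans up to 10 kb, -0.42.

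S100A9, a subunit of calprotectin, fell furthest. Calprotectin is the heterodimer of S100A8 and S100A9 that neutrophils and monocytes hold in large amounts, and both subunits are also made by stressed or inflamed epithelia. S100A9 (ENSG00000163220, chromosome 1, 153358284 to 153360838, plus strand) measured 9.26 and 9.39 in G1 (clones 1 and 7), 9.22 in S and 8.76 in G2 at day 28 on the log2 scale. At day 0 it measured 12.76 and 14.81 in G1 (clones 1 and 7), 11.97 and 14.58 in S (clones 1 and 7) and 12.68 in G2. Every day 28 library thus lay below every day 0 library, and the gap between the lowest untreated and the highest treated library was wider than the whole spread at day 28. With phase as a term it changed by -4.21 ± 0.51 on the log2 scale (SE), 18.5-fold lower (limma adjusted p = 0.000103). In reads, S100A9 had 209 to 272 per library at day 28 and 1985 to 7831 at day 0.

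S100A8, the other subunit, did not follow. S100A8 (ENSG00000143546, chromosome 1, 153390103 to 153390535, minus strand) measured 8.24, 7.74, 8.07 and 8.29 at day 28 (clones 1 and 7 in G1, then S, then G2). At day 0 it measured 8.25 and 9.33 in G1, 7.19 and 8.88 in S (clones 1 and 7 in each) and 8.18 in G2. The day 28 values lay inside the range of the day 0 values, and the log2 fold change was -0.33 ± 0.46 (SE, limma adjusted p = 0.556). Its level was low throughout, at 86 to 151 reads per library at day 28 and 50 to 341 at day 0. The sign of its estimate turned under 2 of the settings tried, and no direction is drawn for it.

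The ratio of S100A9 to S100A8 reads was therefore lower at day 28. For each S100A8 read there were 2.03 and 3.16 S100A9 reads in G1 (clones 1 and 7), 2.23 in S and 1.38 in G2 at day 28. At day 0 there were 23.0 and 44.6 in G1, 27.6 and 52.1 in S (clones 1 and 7 in each) and 22.7 in G2. The groups did not overlap, but S100A9 alone already separated the days, as did 18.9% of all genes tested. The ratio restates that fall over an S100A8 level of 50 to 341 reads and is not a separate test. These are ratios of reads over spans of unequal length (2555 bases for S100A9, 433 for S100A8), so they compare libraries and not the amounts of the 2 transcripts.

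**Figure D2:**
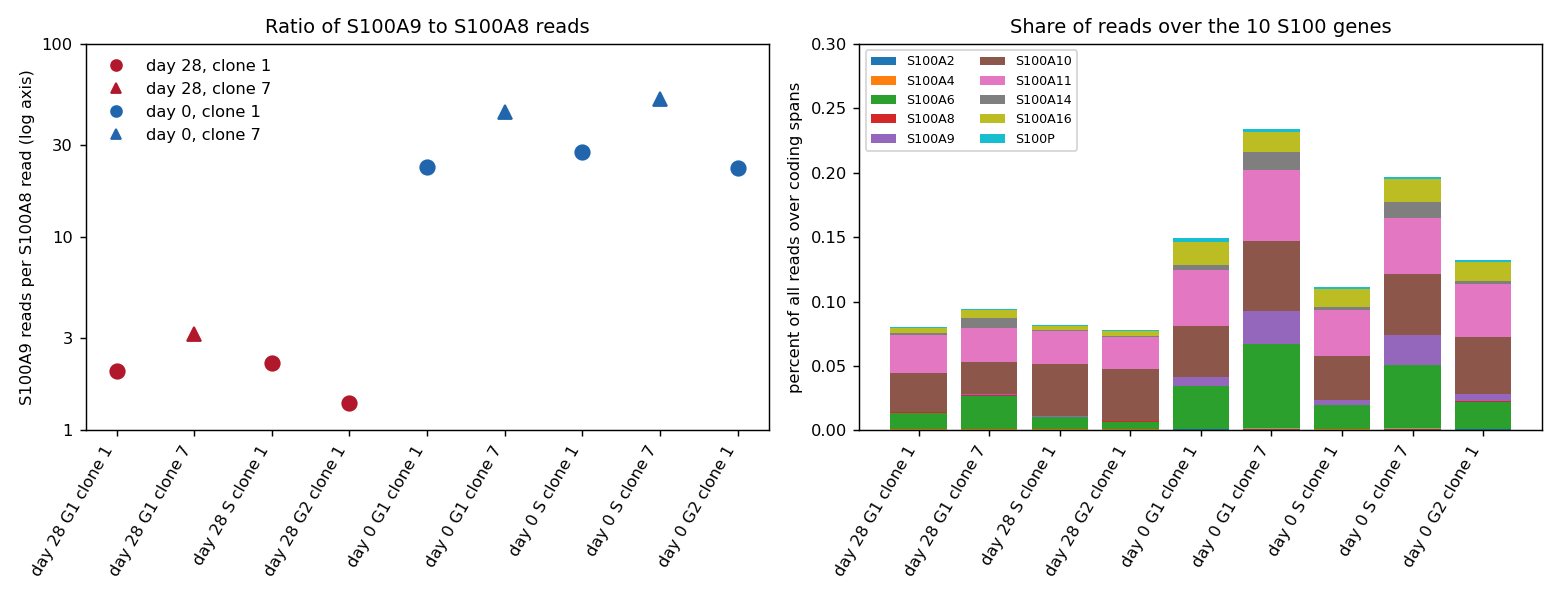
Left, S100A9 reads per S100A8 read (log axis) in each library, with day 28 libraries in red to the left of day 0 libraries in blue, circles for clone 1 and triangles for clone 7: the day 28 ratios run from 1.38 to 3.16 and the day 0 ratios from 22.7 to 52.1. Right, the share of all reads over coding spans taken by the 10 S100 genes, stacked by gene: 0.078% to 0.094% at day 28 and 0.111% to 0.234% at day 0.

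Both subunits have the letters of a TATA box ahead of a transcription start, as do S100A4 and S100P. Only in S100A9 is that start the one of the transcript used here. In the others the 2 starts lie apart, by 115 bases in S100A8, 743 in S100A4 and 809 in S100P. In RefSeq promoter windows (GRCh38.p14, 250 bases before to 50 after a start, 14 windows for the 10 genes) the letters TATAAA stood on the sense strand between 45 and 16 bases before a start in 4 genes, against 2.38% of 35116 windows of all genes. The stretches are shown because these 4 genes share the motif and differ in response, and the capitals mark TATAAA.
S100A9, chr1:153357809-153357838, plus strand: ccagtcaggagctgccTATAAAtgccgagc
S100A8, chr1:153391089-153391118, minus strand: ggccaagcctaaccgcTATAAAaaggagct
S100A4, chr1:153545822-153545851, minus strand: gggcctggctggggTATAAAtaggtcagac
S100P, chr4:6693833-6693862, plus strand: tcaatatgaggctgcctTATAAAgcaccaa
Of these 4 genes S100A9 and S100P fell, and S100A8 and S100A4 did not pass the test. In the 250 bases before the starts, on both strands, other searched motifs were an AP-1 site (TGANTCA) in S100A2 alone (6.57% of all windows), a C/EBP site (TTGCNNAA) in S100A11 alone (9.05% of all windows) and a GC box (GGGCGG) in 5 genes (42.6% of all windows). These motif counts, TATAAA included, are of genes, some with several windows, while the shares are of windows, so the 2 are not directly comparable. A match describes the letters in a window and shows no binding.

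S100A16 had the second largest fall of the 10. It is a widely expressed member that binds calcium, found in many epithelia. S100A16 (ENSG00000188643, chromosome 1, 153607534 to 153608151, minus strand) measured 11.42 and 12.34 in G1 (clones 1 and 7), 11.57 in S and 11.78 in G2 at day 28. At day 0 it measured 14.08 and 14.14 in G1, 13.71 and 14.23 in S (clones 1 and 7 in each) and 14.05 in G2, so the untreated libraries stood within a narrow band and the treated ones well below it. The log2 fold change was -2.29 ± 0.22 (SE), or 4.89-fold lower (limma adjusted p = 3.38e-05). Of the 10 genes it was the only one called lower in G1 and in S alone as well.

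S100A14, its neighbour, split by clone as much as by treatment. S100A14 is an epithelial member described as a ligand of AGER in oesophageal cancer cells. It (ENSG00000189334, chromosome 1, 153614885 to 153615858, minus strand) measured 10.79 and 12.54 in G1 (clones 1 and 7), 9.73 in S and 9.72 in G2 at day 28. At day 0 it measured 11.83 and 13.92 in G1, 11.31 and 13.70 in S (clones 1 and 7 in each) and 11.22 in G2. The clone 7 library at day 28 stood above all clone 1 libraries of day 0, so the groups overlapped, while each of the 4 matched pairs of libraries (same phase and clone) was lower at day 28, by 1.05 to 1.58 on the log2 scale. The log2 fold change was -1.76 ± 0.58 (SE, limma adjusted p = 0.0233), and -1.43 ± 0.19 with the clone as a block (limma adjusted p = 0.00017). The call was lost in 5 of the 9 fits that left out 1 library: without day 28 S (-1.31, limma adjusted p = 0.143), day 28 G1 of clone 1 (0.082), day 28 G2 (0.0571), day 0 G2 (0.0588) and day 0 G1 of clone 7 (0.0576).

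S100A6, or calcyclin, binds CACYBP and annexins and is abundant in proliferating epithelial and mesenchymal cells. S100A6 (ENSG00000197956, chromosome 1, 153534696 to 153535339, minus strand) measured 13.35 and 14.37 in G1 (clones 1 and 7), 13.07 in S and 12.35 in G2 at day 28. At day 0 it measured 14.96 and 16.17 in G1, 14.11 and 15.66 in S (clones 1 and 7 in each) and 14.54 in G2. Here too only the clone 7 library of day 28 reached into the range of day 0, and all 4 matched pairs were lower at day 28, by 1.04 to 2.19. The log2 fold change was -1.85 ± 0.36 (SE, limma adjusted p = 0.00133), 3.61-fold lower.

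S100A10 and S100A11 are the annexin-binding members, S100A10 as the light chain of the complex with annexin A2 at the plasma membrane and S100A11 as a partner of annexins A1 and A2. S100A11 (ENSG00000163191, chromosome 1, 152032662 to 152036915, minus strand) averaged 14.47 ± 0.07 at day 28 (SD, n = 4) and 15.47 ± 0.33 at day 0 (SD, n = 5), and no day 28 library reached the day 0 range. Its log2 fold change was -1.03 ± 0.20 (SE, limma adjusted p = 0.00132). It has 2 processed copies in GENCODE v29, S100A11P1 and S100A11P2, which could share reads with it. S100A10 (ENSG00000197747, chromosome 1, 151983163 to 151986230, minus strand) was 14.61 and 14.36 in the G1 libraries (clones 1 and 7), 15.14 in S and 15.14 in G2 at day 28, and 15.00 to 15.91 at day 0. The S and G2 libraries of day 28 thus lay within the day 0 range and the G1 libraries below it. The log2 fold change of S100A10 was -0.66 ± 0.24 (SE, limma adjusted p = 0.038), the smallest of the 8, and the call was fragile. It was lost in 7 of the 9 fits that left out 1 library (limma adjusted p from 0.0533 to 0.102), all but those without the day 0 S library of clone 1 and without the day 28 S library. It was also lost with quantile scaling (-0.14), in clone 1 alone (-0.31) and with the trend of each library with span length removed (-0.41, limma adjusted p = 0.642, 0.269 and 0.178 in that order).

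S100A2 and S100P were expressed at low levels and were lower in every day 28 library. S100A2 (ENSG00000196754, chromosome 1, 153561439 to 153563877, minus strand), a nuclear member that binds p53 and is found in basal epithelial cells, averaged 8.43 ± 0.41 at day 28 (SD, n = 4) and 9.76 ± 0.58 at day 0 (SD, n = 5). Its log2 fold change was -1.41 ± 0.34 (SE, limma adjusted p = 0.00498), and it rested on 103 to 198 reads per library at day 28 and 113 to 738 at day 0. S100P (ENSG00000163993, chromosome 4, 6693933 to 6697042, plus strand), first found in placenta and a partner of ezrin, was nearly constant at day 28, at 9.51, 9.51, 9.50 and 9.34 (clones 1 and 7 in G1, then S, then G2). At day 0 S100P measured 11.18 and 11.23 in G1, 9.76 and 10.71 in S (clones 1 and 7 in each) and 10.27 in G2. Its log2 fold change was -1.22 ± 0.29 (SE, limma adjusted p = 0.00415).

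S100A4 (ENSG00000196154, chromosome 1, 153543759 to 153544794, minus strand), a partner of non-muscle myosin linked to cell motility and metastasis, was the single member with a positive estimate, 0.12 ± 0.41 (SE, limma adjusted p = 0.813). It measured 8.85 and 9.49 in G1 (clones 1 and 7), 8.95 in S and 8.56 in G2 at day 28, and 8.80 and 9.60 in G1, 7.76 and 9.61 in S (clones 1 and 7 in each) and 8.32 in G2 at day 0. The groups overlapped fully, and within each day the clone 7 libraries were the higher ones. Its estimate turned negative with quantile scaling (-0.39) and without the day 0 S library of clone 1 (-0.12), so no direction is drawn for S100A4.

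**Figure D3:**
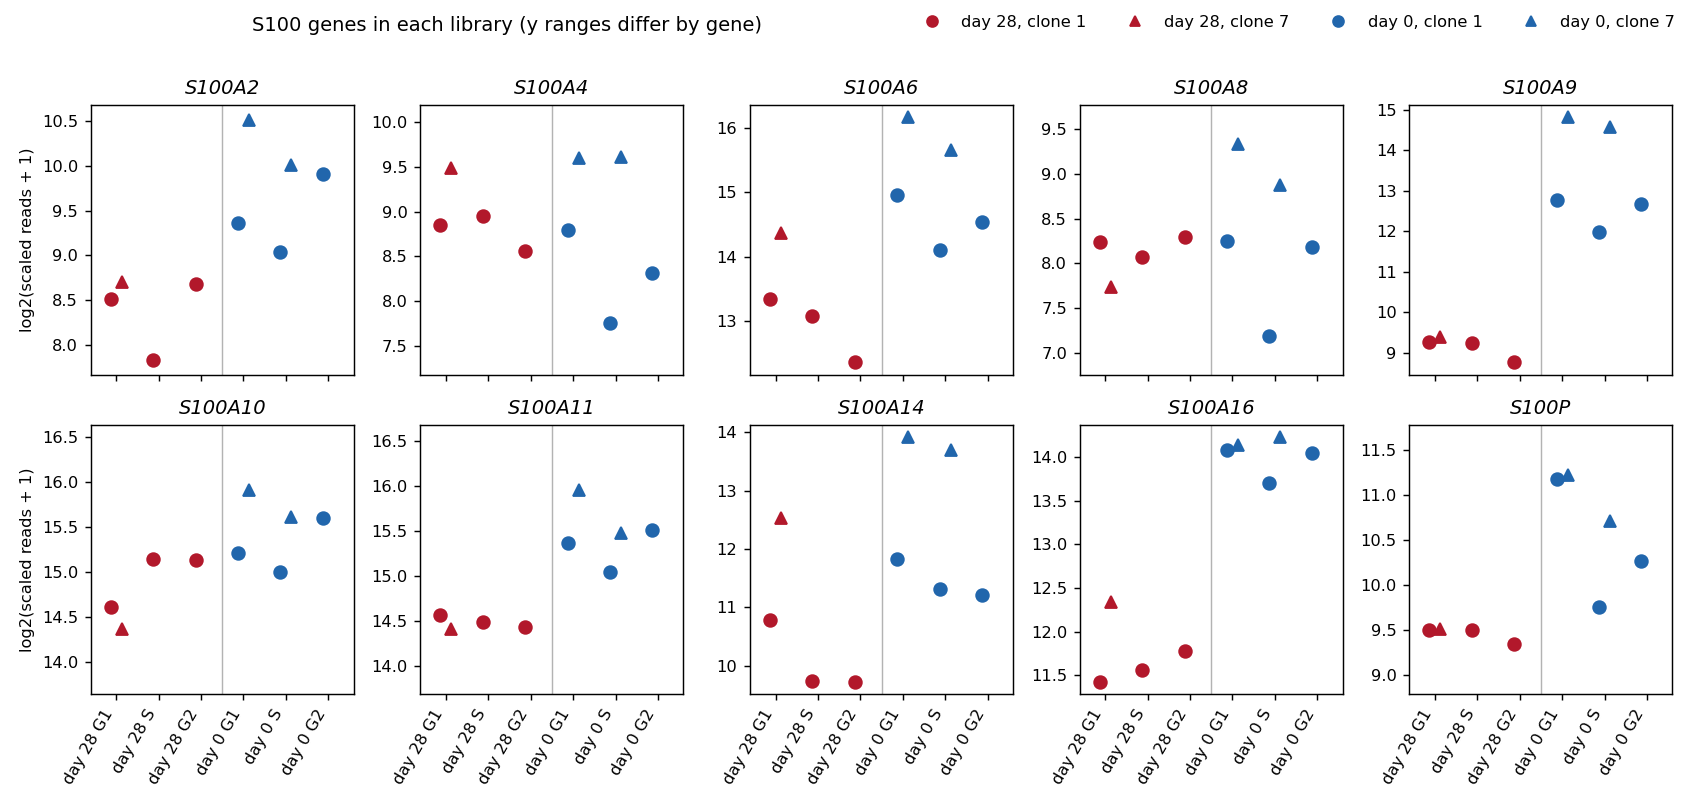
Log2(scaled reads + 1) of the 10 S100 genes in each of the 9 libraries by day and phase, day 28 in red to the left of day 0 in blue, circles for clone 1 and triangles for clone 7; the vertical range differs by gene. In S100A2, S100A9, S100A11, S100A16 and S100P all red points lie below all blue points. In 8 genes, all but S100A11 and S100P, both blue triangles (clone 7 at day 0) lie above all blue circles. How many of all genes show this order of the clones was not counted.

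Counted over libraries, 5 of the 10 genes (S100A2, S100A9, S100A11, S100A16 and S100P) had every day 28 library below every day 0 library, as had 18.9% of all genes tested and 27.7% of those with spans up to 10 kb. In all, 7 were lower at day 28 in all 4 matched pairs, as were 29.9% of all genes and 42.1% of those with short spans. The clone as a block called the same number of members, 8, where 3514 of 12391 genes were lower. Removing the trend with span length left 6 called, where 3447 of 12391 genes were lower. The 6 were without S100A10 and S100A14 (-1.38, limma adjusted p = 0.0774), and S100A9 was then at -3.93, S100A16 at -1.86 and S100A6 at -1.43. Mitochondrial share was higher at day 28 in clone 1 (15.8% to 21.6% of reads, against 6.07% to 6.64% at day 0) but not in the G1 pair of clone 7 (8.61% at day 28 and 10.7% at day 0). In that clone 7 pair, whose day 0 library was the shallowest of all, S100A9 differed by -5.42 and S100A16 by -1.79. In the clone 1 pairs S100A9 differed by -3.92 to -2.74 and S100A16 by -2.66 to -2.14. Any bearing of the mitochondrial share on these differences was not tested.

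The family also changed in makeup. Levels were expressed per kb of coding sequence and per 1 M reads. The reads include introns, so the order of genes depends on the length used. S100A10 was the highest at day 28, at 1154 ± 254 (SD, n = 4), followed by S100A11 at 831 ± 60 and S100A6 at 489 ± 314. Neighbours in this order had overlapping ranges. At day 0 these 3 stood closer together, at 1492 ± 258, 1383 ± 234.4 and 1364 ± 715 (SD, n = 5), and their ranges overlapped. S100A16 came after them on both days, with a range apart from that of S100A6, at 135 ± 45 at day 28 and 519 ± 59 at day 0. S100A9 held the fifth place at day 0, at 380 ± 295, with a range that overlapped those of S100A16 and S100A14, and the seventh at day 28, at 19.5 ± 4.03, where its range overlapped that of S100A4 at 19.5 ± 6.18. S100A8 had the lowest mean on both days, at 11.2 ± 1.72 at day 28 and 12.3 ± 5.74 at day 0, with ranges that overlapped that of the gene above it (S100A2 at day 28, S100A4 at day 0). These levels include intron reads, and per kb of the whole span S100A6 came first on both days, at 207 ± 133 at day 28 and 578 ± 303 at day 0, and S100A2 came last, at 1.69 ± 0.45 and 3.55 ± 1.16 in that order of days. By span S100A16 had rank 3 at day 28 and rank 2 at day 0, and S100A8 had rank 6 at day 28 and rank 7 at day 0.

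As a share of the reads over the 10 genes, S100A10 took 37.4%, 27.0%, 48.9% and 51.6% at day 28 (clones 1 and 7 in G1, then S, then G2) and 23.1% to 33.4% at day 0. S100A6 took 15.6%, 27.2%, 11.6% and 7.49% at day 28 in the same order and 15.98% to 27.7% at day 0. In day 28 G2 the family's reads were thus mostly those of S100A10, and S100A6 was at its lowest share there. The 10 genes together took 0.078% to 0.094% of all reads at day 28 and 0.111% to 0.234% at day 0, without overlap.

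Phase by phase the same direction was seen with fewer calls. In G1, where each day has 2 libraries, all 10 estimates were negative and 5 genes were called lower (19.1% of all genes were lower in G1 and 19.8% higher): S100A9 at -4.46 ± 0.89, S100A16 at -2.23 ± 0.35, S100P at -1.70 ± 0.39, S100A11 at -1.17 ± 0.30 and S100A10 at -1.08 ± 0.34 (SE, limma adjusted p = 0.00889, 0.00463, 0.0138, 0.0196 and 0.0401 in that order). With the clone as a block 8 were called in G1 (24.5% of all genes were then lower), since S100A6 (-1.71, limma adjusted p = 0.00254), S100A14 (-1.21, 0.00943) and S100A2 (-1.33, 0.0299) joined them. The G1 count was unstable when 1 library was left out. Fits without a G1 library leave a single library in that group, and their counts are not compared with all genes. In those without the day 28 G1 library of clone 1 or of clone 7, S100A9 stood at -4.39 and -4.53 in that order. With the length trend removed 3 members were called in G1, where 2356 of 12391 genes were lower.

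In S, with a single day 28 library that was assumed to vary like the other groups, S100A16 alone was called lower, at -2.40 ± 0.43 (SE, limma adjusted p = 0.0334), where 2.9% of all genes were lower and 4.37% higher. S100A9 was estimated at -4.05 ± 1.09 in S and just missed the threshold (limma adjusted p = 0.0612). The clone as a block called 4 in S (6.5% of all genes were then lower), adding S100A9 (-3.25), S100A14 (-1.73) and S100A6 (-1.18, limma adjusted p = 0.0378, 0.0292 and 0.0386 in that order). The S count was unstable when 1 library was left out, and the S100A16 call did not hold in all of those fits. Fits without a G1 or a day 0 S library leave a single library in that group, and their counts are not compared with all genes. S100A16 stood at -2.14 without the day 0 S library of clone 7 and at -2.66 without that of clone 1. In G2, with 1 library per day and no test, the differences of day 28 minus day 0 were -3.92 for S100A9, -2.27 for S100A16, -2.19 for S100A6, -1.50 for S100A14, -1.23 for S100A2, -1.09 for S100A11, -0.92 for S100P, -0.47 for S100A10, 0.11 for S100A8 and 0.24 for S100A4. Their order was that of the pooled estimates, which include these libraries, but for S100P and S100A11, which changed places.

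No S100 gene passed the test between phases within a day, and the errors were wide. At day 0 all 10 estimates of S minus G1 were negative, from -0.97 ± 0.39 (SE, S100P) to -0.14 ± 0.35 (S100A16), with a median of -0.46 against -0.04 over all genes. With limma 0 members and 0 genes of the whole table were called, and at an unadjusted p under 0.05 there were 211 higher and 232 lower genes, S100P among the lower (limma, unadjusted p = 0.0388 and adjusted p = 0.999). At day 28 the mean of S and G2 minus G1 was lowest for S100A14 (-1.94 ± 0.96) and S100A6 (-1.15 ± 0.61) and highest for S100A10 (0.65 ± 0.34, SE), again with no member called, while 2.9% of genes were called higher and 1.85% lower. The day 28 S and G2 libraries are of clone 1 alone while G1 also holds clone 7, and with the clone as a block the estimates were -0.90 for S100A14, -0.52 for S100A6 and 0.83 for S100A10 (limma adjusted p = 0.0899, 0.192 and 0.133 in that order). For G2 minus S over both days the estimates lay between -0.82 (S100A14) and 0.57 (S100A2), with no call among members or among all genes, and 536 higher and 433 lower at an unadjusted limma p under 0.05.

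The difference between the response of S and G2 and the response of G1 was tested directly. No member passed, nor did any gene (limma), with 805 higher and 577 lower genes at an unadjusted p under 0.05. S100P (0.88 ± 0.51, a smaller fall in S and G2), S100A10 (0.78 ± 0.43) and S100A14 (-1.01 ± 1.20, SE) had the estimates furthest from 0 among the called members. The SE of this difference ran from 0.38 (S100A11) to 1.20 (S100A14) log2 units, which sets how small a difference these libraries could show.

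Between the clones S100A14 and S100A6 differed. Clone 7 had the higher estimate for all 10 (day and phase as terms), with a median log2 difference of 0.70 against 0.02 over all genes, and 2 passed the test, where 0.387% of all genes were called higher. S100A14 was 2.14 ± 0.22 higher in clone 7 (SE, limma adjusted p = 0.00176), a 4.4-fold difference. Its clone 7 libraries exceeded their clone 1 partners by 1.75 in day 28 G1, by 2.08 in day 0 G1 and by 2.39 in day 0 S. S100A6 was 1.16 ± 0.22 higher in clone 7 (SE, limma adjusted p = 0.0491), by 1.02, 1.21 and 1.55 in the same pairs. The call on S100A14 was lost without the day 0 S library of clone 7 (1.92, limma adjusted p = 0.0852). The S100A6 call stood at the threshold: it was lost with quantile scaling (limma adjusted p = 0.0997), with a filter of 1 CPM in 4 libraries (0.0513) and in 7 of the fits that left out 1 library, the lowest adjusted p over all settings being 0.0323.

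S100A9 was higher in clone 7 at day 0, by 2.05 in G1 and 2.61 in S, and by 0.14 in G1 at day 28. Its pooled difference, 1.45 ± 0.41 (SE), did not pass the test (limma adjusted p = 0.129), while without the day 28 G1 library of clone 7, which leaves the day 0 pairs, it was 2.19 and passed (limma adjusted p = 0.00415). Whether the clone difference itself changed between the days was not tested beyond that fit. For S100A4 clone 7 measured 0.64 (day 28 G1), 0.80 (day 0 G1) and 1.85 (day 0 S) above clone 1, and for S100A8 the differences of clone 7 minus clone 1 were -0.50, 1.09 and 1.68 in the same order, neither gene past the test (limma adjusted p = 0.24 and 0.58). There were 7 members higher in clone 7 in all 3 matched pairs, as were 23.3% of all genes. S100A10 and S100A11, at 0.23 ± 0.27 and 0.21 ± 0.22 (SE), changed sign with quantile scaling (-0.02 for both).

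**Figure D4:**
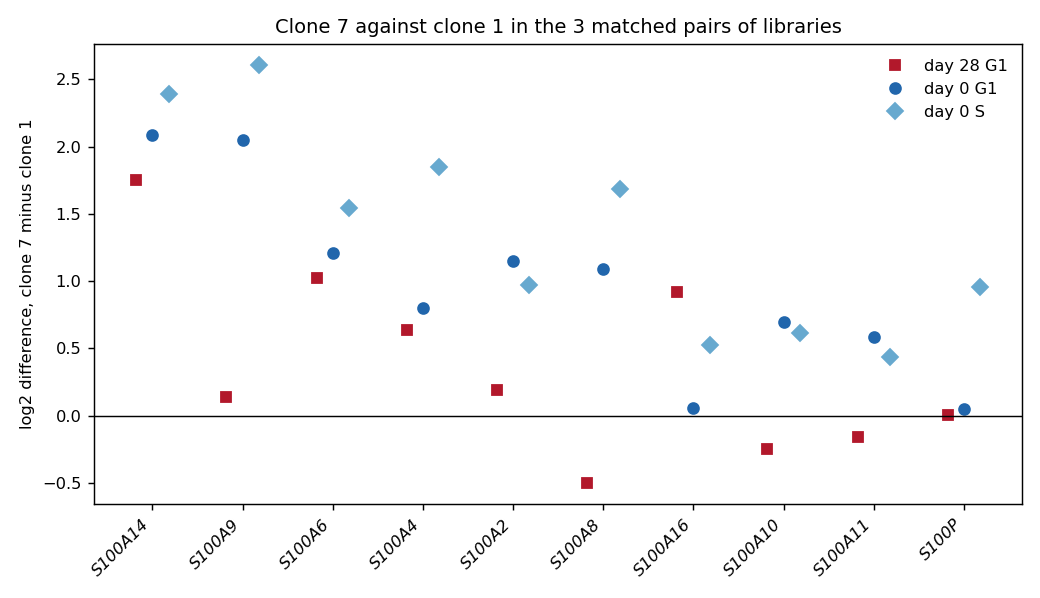
Log2 difference of clone 7 minus clone 1 (vertical axis) in the 3 matched pairs of libraries, day 28 G1 (red squares), day 0 G1 (blue circles) and day 0 S (light blue diamonds), for the 10 S100 genes ordered by the fitted difference. S100A14 and S100A6 lie above 1 in all 3 pairs, and S100A9 lies above 2 at day 0 and at 0.14 at day 28.

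Read coverage also separated the clones, and S100A6 shows it. Its chosen span ends 18 bases further than a second annotated transcript of the gene, on the last codons before the stop. The extra bases are printed because the clones differ in reads there, and the capitals mark the stop codon.
S100A6 coding end, chr1:153534696-153534713, minus strand: gaagccctcaagggcTGA
Reads found only over these bases were 0.315% of S100A6 reads in the clone 7 library of day 28 and 0.175% and 0.176% in those of day 0 (G1 and S). In clone 1 they were 14.5%, 17.4% and 21.6% at day 28 (G1, S, G2) and 9.97%, 9.37% and 11.6% at day 0. Across 497 pairs of nested spans that differ by up to 30 bases at the 3′ end, the shares of such reads had a Spearman correlation of 0.651 to 0.964 between libraries of clone 1 and of 0.8 to 0.891 between those of clone 7. Between a clone 7 and a clone 1 library it was 0.442 to 0.679. These correlations run across spans within libraries and describe the libraries. The part of this coverage difference in the clone 7 values of the S100 genes was not tested, and with those bases left out the S100A6 reads at day 0 G1 were 5714 in clone 7 and 32299 in clone 1, against 5724 and 35877 with them.

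Of the S100 genes outside the 10, S100A13, which takes part in the release of FGF1, averaged 12.41 ± 0.49 at day 28 (SD, n = 4) and 12.96 ± 0.68 at day 0 (SD, n = 5), and its log2 fold change was -0.64 ± 0.31 (SE, limma adjusted p = 0.0977). S100A13 was 0.99 ± 0.20 higher in clone 7 and just missed the threshold (SE, limma adjusted p = 0.0529). S100A7A, S100B, S100G and S100Z had 0 reads in every library, where a count of 0 allows up to 3 reads. S100A1, S100A7 and S100A12 had at most 9 reads in a library. S100A5 had 1 to 10 reads per library at day 28 and 14 to 68 at day 0, and S100A3 had 7 to 48 at day 28 and 5 to 55 at day 0, and none of these entered the tests. Among the 7 fused-type S100 genes, whose large proteins structure the skin barrier, only TCHH (trichohyalin) was tested, and it rose by 2.16 ± 0.55 (SE, limma adjusted p = 0.00654).

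The S100 cluster shares its region with many other genes. Of 71 genes within 500 kb of a member on either chromosome 35 were tested, with a median log2 fold change of 0.00. Of these 9 fell (25.7%) and 7 rose, against 26.6% and 28.6% of all genes. On chromosome 1 the tested neighbours numbered 23, of which 8 fell and 6 rose, and among the 9 S100 genes there 7 fell. The largest changes were in ILF2 (-2.18 ± 0.18), TCHH (2.16 ± 0.55), TDRKH, a Tudor protein of the piRNA pathway (-2.11 ± 0.37), and MRPL9, a mitochondrial ribosomal protein (-1.65 ± 0.18, SE, limma adjusted p = 2.17e-05, 0.00654, 0.000826 and 6.05e-05 in that order). Genes that rose and genes that fell stood side by side along the region.

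**Figure D5:**
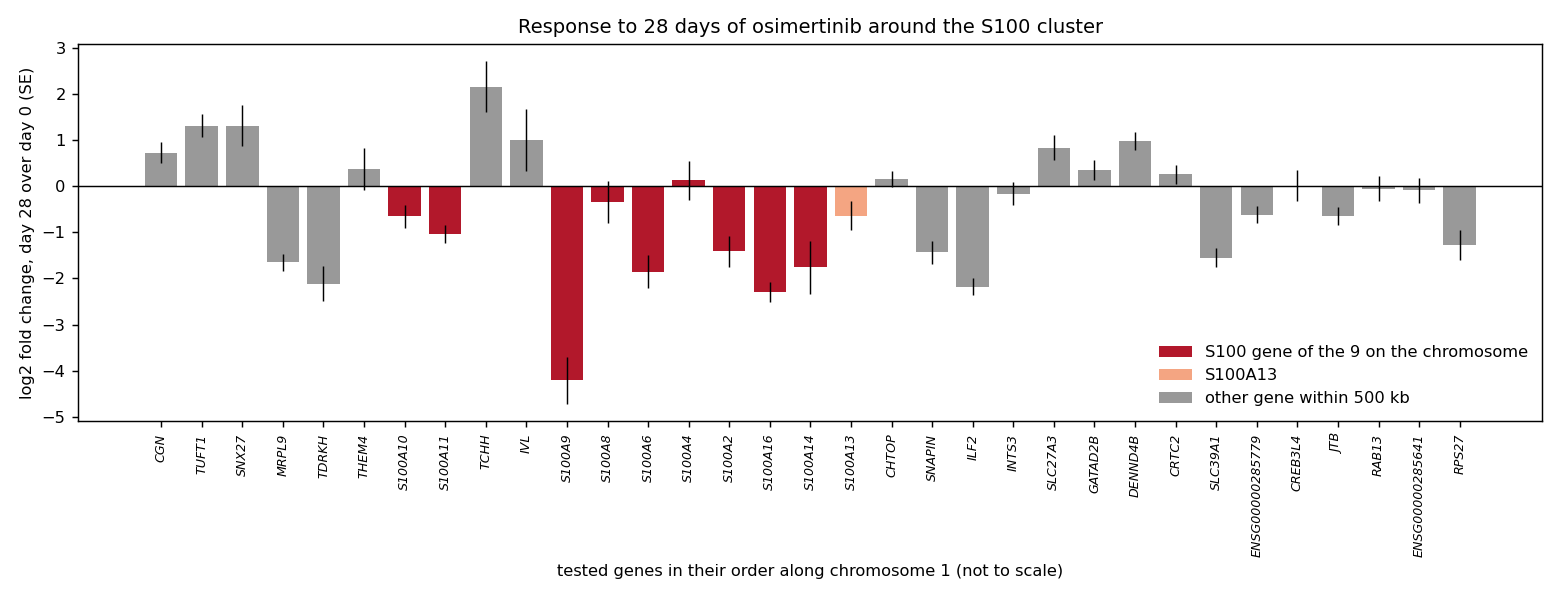
Log2 fold change of day 28 over day 0 with its SE (vertical axis) for tested genes in their order along chromosome 1, not to scale: the 9 S100 genes in red, S100A13 in orange and other genes within 500 kb in grey. From S100A9 to S100A14 all red bars but that of S100A4 point down, while grey bars point both ways, with 8 past the threshold below 0 and 6 above.

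Of 14 intracellular partners of S100 proteins tested 5 fell (35.7%) and 2 rose (14.3%), against 26.6% and 28.6% of all genes, with a median log2 fold change of -0.25 against 0.01. CACYBP, which links S100A6 to a ubiquitin ligase, fell by 1.66 on the log2 scale (SE 0.25, limma adjusted p = 0.000327), and ANXA2, the partner of S100A10 and S100A11, averaged 16.97 ± 0.12 at day 28 (SD, n = 4) and 17.98 ± 0.34 at day 0 (SD, n = 5), a change of -1.03 ± 0.24 (SE, limma adjusted p = 0.00398). EZR, SUGT1 and ANXA11 fell as well. MDM2, the p53 ubiquitin ligase, rose by 1.40 ± 0.32, and PPFIBP1, a liprin bound by S100A4, by 1.19 ± 0.23 (SE, limma adjusted p = 0.00339 and 0.00138).

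Of 7 receptors described for S100 proteins 5 were tested, and 2 rose (40%) while 2 fell (40%), against 28.6% and 26.6% of all genes. With 5 genes these shares are coarse. Their median log2 fold change was -0.09, against 0.01 over all genes. AGER, the receptor for S100P, S100A8 and S100A9 among others, averaged 11.05 ± 0.33 at day 28 (SD, n = 4) and 8.56 ± 0.82 at day 0 (SD, n = 5), a rise of 2.40 ± 0.37 (SE, limma adjusted p = 0.000393). ALCAM, an adhesion receptor described for S100A8 and S100A9, rose by 2.32 ± 0.32 (SE, limma adjusted p = 0.000201). NPTN (-1.06 ± 0.21) and BSG (-0.59 ± 0.23), immunoglobulin-type receptors described for the same ligands, fell (SE, limma adjusted p = 0.0015 and 0.045). MCAM, the fifth one tested, stood at -0.09 ± 0.53 (SE, limma adjusted p = 0.901).

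Of 14 transcription factors described at S100 promoters and tested 3 rose (21.4%) and 2 fell (14.3%), both shares below those of all genes (28.6% and 26.6%), with a median of -0.13. CEBPD rose by 2.19 ± 0.35, FOS by 2.15 ± 0.34 and JUND by 1.01 ± 0.21 (SE, limma adjusted p = 0.000465, 0.000402 and 0.00189). FOSL1, the FRA1 subunit of AP-1, averaged 10.22 ± 1.52 at day 28 (SD, n = 4) and 12.51 ± 0.70 at day 0 (SD, n = 5), a change of -2.34 ± 0.61 (SE, limma adjusted p = 0.00752), and CEBPB changed by -0.74 ± 0.23 (SE, limma adjusted p = 0.0156). FOSL1 was also the only one of these factors called between the clones, 2.07 ± 0.36 higher in clone 7 (SE, limma adjusted p = 0.0385).

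Markers of other cells were looked at because leukocytes hold much S100A8 and S100A9. The 11 leukocyte markers summed to 11.8 to 22.7 CPM at day 28 and 8.05 to 16.6 CPM at day 0, so the ranges overlapped and the day 28 one reached higher. MPO, ELANE and MS4A1 had at most 1 read in any library, and CD14 had 0 to 39 reads at day 28 and 2 to 14 at day 0. PTPRC, which encodes the pan-leukocyte antigen CD45, had 16, 20, 42 and 95 reads at day 28 (clones 1 and 7 in G1, then S, then G2) and 0 to 11 at day 0, and FCN1 had 40 reads in day 28 G2 and at most 1 elsewhere. Only CD68, a lysosomal protein of macrophages and other cells (-2.80 ± 0.46), and ITGAM (1.22 ± 0.36) were tested, and they changed in opposite directions (SE, limma adjusted p = 0.000522 and 0.0129). Of 7 squamous keratinocyte markers 4 were tested and none was called, with sums of 50.7 to 77.4 CPM at day 28 and 54.0 to 77.0 CPM at day 0. Of 8 fibroblast and endothelial markers 3 were tested and PECAM1 (-2.50 ± 0.47) and CDH5 (-1.85 ± 0.49) fell (SE, limma adjusted p = 0.00122 and 0.00817), with sums of 20.3 to 53.4 CPM at day 28 and 19.2 to 26.6 CPM at day 0. Of the 7 epithelial markers 4 fell: EPCAM by 1.31, KRT18 by 1.24, KRT7 by 1.06 and KRT8 by 0.96 on the log2 scale. These short marker lists stand beside 26.6% of all genes tested that fell and 28.6% that rose.

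By likeness over the 9 libraries the genes closest to S100A9 were RPL10, a ribosomal protein (Pearson r = 0.993), PTX3, a secreted pattern recognition protein (0.991), and SSR2, a subunit of the translocon-associated complex (0.990). PTX3 changed by -3.92 at day 28, RPL10 by -1.60 and SSR2 by -1.38. The genes closest to S100A4 were WFDC3 (0.910), SULT1A1 (0.908) and PALB2 (0.905). These are descriptions over libraries that share clones and days.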

How the data were processed

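RNA was measured in 9 libraries of 2 PC9 clones. The authors deposited log2 values per coding transcript. HISAT2 2.1.0, the build GRCh38 and DESeq2 (no version) are named, per the submitters' processing notes. The read counter and the scaling are not given in the sources used here. From the values, each entry is log2 of whole reads times 1 factor per library, with 0.9 reads standing in for 0 (of values below 1000 reads, 100% came out whole, with a tolerance of 0.05), over 80037 spans from coding start to stop, introns included. The labels give about 24 M (mega) reads per sample, and the recovered reads average 43.0 M over 1 span per gene.

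Each gene was taken as its span with the highest mean, put on the linear scale, given 1 more, and logged again. Genes with a mean log2 of at least 7.01 (10 reads in the shallowest library) were tested. Precision is limited by depth in the shallowest library, where 10 reads carry a wide counting error. limma 3.58.1 in R 4.3.3 (lmFit, eBayes with trend, two-sided) was fitted on all 9 libraries, with Benjamini-Hochberg adjustment over all genes tested and a threshold of 0.05. The fits used day and phase, day, phase and clone, or 6 group means with 1 pooled spread. Also used were matplotlib 3.10.9, pandas 2.3.3, numpy 2.4.6, Python 3.11.15 and the R package data.table (1.17.8). On simulated data with 12391 genes, the day comparison recovered 65.7% of genes changed by 1 log2 unit and 100% of those changed by 2. The simulation gave all genes the same spread and no clone effect. Its rates need not hold for the S100 genes, whose SE ran from 0.20 (S100A11) to 0.58 (S100A14). Count models were not used, since the values are logs.

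The clone number pairs the libraries: the clone 7 minus clone 1 differences of all tested genes in day 0 G1 correlated with those in day 0 S (r = 0.653) and in day 28 G1 (0.115), as did those of the last pair (0.296). Values from a replicate block by clone appear wherever they alter a call.

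The 10 genes, the lists of partners, receptors, factors and markers, and the tests were chosen with earlier results of these data known. All 10 are named whatever their result, with the remaining S100 genes (S100A7L2 was not matched), up to 4 called genes per list with the largest change, and the 3 genes most like the members with the lowest and the highest fold change. A few genes outside the rule (EZR, SUGT1, ANXA11 and CEBPB) were named to complete counts after their values were seen. Alternatives were 2 further scalings, 2 filters, 2 pseudocounts, the block, clone 1 alone, the widest span, removal of the span length trend (lowess), and leaving out each library.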

Additional observations from a re-analysis of the deposited data

Results flagged for a closer look

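S100P at day 28 had 1 library apart from the rest: G2 measured 9.34 on the log2 scale, where the nearest of the other 3 libraries, S, measured 9.50 and all 3 lay within 0.01 of each other. Of 20 groups looked at for a sample far from the others this was the only one, and chance gives about 1 in 20.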

How the results depend on the processing

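For day 28 against day 0, 6 to 8 members stayed lower in each of the 10 other settings and in each fit that left out 1 library. Over all genes, 2760 to 3514 were lower in these settings and fits. S100A2, S100A6, S100A9, S100A11, S100A16 and S100P were called in all of them, with S100A9 from -4.55 to -3.39 and S100A16 from -2.47 to -1.86. S100A14 ranged from -2.24 to -1.31 (limma adjusted p from 0.00017 to 0.143) and S100A10 from -0.87 to -0.14. Estimates changed sign for S100A4 with quantile scaling (-0.392) and without the day 0 S library of clone 1 (-0.119, in a range of -0.119 to 0.344 with 1 library left out), and for S100A8 in clone 1 alone (0.326) and with the length trend removed (0.132), all uncalled. The median of all genes was -0.105 with quantile scaling and -0.114 with the length trend removed, and the members' median lay 1.44 and 0.937 below it.

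In G1 the count of 5 lower members became 8 with the clone as a replicate block (3034 of 12391 genes lower) and 3 with the length trend removed (2356 of 12391). This count also moved when 1 library was left out, as did the number of all genes called. In S the count of 1 became 4 with the block (806 of 12391 genes lower) and 2 with no filter (697 of 18827). It too moved with 1 library left out, as did the number of all genes called. The count of 2 members higher in clone 7, where 48 of 12391 genes were higher, became 1 with quantile scaling (17 of 12391). With the filter of 1 CPM in 4 libraries it was 1 (38 of 13254). It ranged from 0 to 3 with 1 library left out, where 6 to 197 genes were higher. In that comparison S100A10 (-0.024) and S100A11 (-0.021) changed sign with quantile scaling, S100A10 without the day 0 G1 library of clone 7 (-0.003, range to 0.617) and S100P without the day 0 S library of clone 1 (-0.044, range to 0.508). The S100A14 response difference between phases became 0.028 without the day 0 G1 library of clone 1 (range from -2.056). The causes were not tested. The block changed no other count of calls. Clone 1 alone could give only the comparisons with day and phase as terms, and comparisons that need day 28 S or G2 could not be fitted without it. S100A2, S100A4, S100A8 and S100P rest on at most 738, 500, 341 and 2614 reads in a library. The SE of their day estimates ran from 0.29 (S100P) to 0.46 (S100A8), which sets how small a difference could be shown. Any bearing of read number on these SE was not tested.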
